A study of Canis lupus familiaris with 33 samples.

Results

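The regions described here were stretches of the dog genome captured as methylated DNA in 1 of 11 tissues, at a strength that reached the middle of that tissue's own list. All peaks of the 11 tissue lists on the 38 autosomes were merged into 450785 union regions. A union region was chosen by 2 measured values: it had a peak in exactly 1 list, and the fold enrichment of that peak was at or above the median fold of that list. These criteria selected 3490 regions, which is 0.774% of all autosomal union regions and 4.25% of the 82088 regions found in 1 tissue. The other 78598 regions found in 1 tissue, with a fold below the median of their list, are called weak regions below. Regions with a peak in all 11 lists numbered 121527 and are called shared regions. Each of the 3490 strong regions was a single peak.

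The series profiled adult beagles by MBD-seq, with 22 capture libraries and 11 input libraries of uncaptured DNA. DNA was sheared to about 300 bp, and the fragments released from the capture beads at 600 and 800 mM salt were sequenced. The tissues were 2 of the brain (cerebellum and cerebrum), 4 digestive organs (stomach, colon, liver and pancreas), ovary and mammary gland, and kidney, spleen and lung, all from healthy dogs with no treatment named beyond euthanasia. Each had 2 capture libraries from different dogs and 1 input library. The same dog gave 1 capture library of every tissue. The second dog was jj82 in colon and stomach, jj8 in 7 tissues, and a dog of another identifier in mammary gland and ovary. The input libraries of colon and stomach were labelled jj8, which by the labels gave neither capture library of these tissues. In every other tissue the input library came from a dog that also gave a capture library. The labels describe 1 male and 2 female dogs, while the titles carry 4 identifiers, and jj8 is labelled male in capture libraries and female in input libraries. Both capture libraries of a tissue carried 1 common list, so no spread between dogs could be computed and the second dog cannot be told apart from the tissues it served. The lists name no genes, so the tissue labels were not checked against marker genes. Read depth is unknown, and a tissue without a peak is a tissue in which none was listed, which is not the same as unmethylated DNA.

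Methylation of the cytosine in CpG pairs is carried through cell division by maintenance methyltransferases, and it is removed locally where regulatory elements are in use. Most CpGs of a mammalian genome are methylated in most tissues, so differences between tissues lie at a minority of sites, many of them distal regulatory elements. The methyl-CpG-binding domain holds double-stranded DNA more tightly the more methylated CpGs a fragment carries, and elution with high salt therefore favours densely methylated, CpG-rich fragments. A tissue is a mixture of cell types. Cerebellum is dominated by granule neurons, liver by hepatocytes, and ovary holds stroma, follicles and blood vessels.

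Cerebellum and ovary held most of the strong regions: 1728 in cerebellum and 1237 in ovary, together 2965, or 85.0% of the total. Liver followed with 186, colon with 118, spleen with 87, mammary gland with 42, kidney with 35 and cerebrum with 21. Lung, pancreas and stomach had 12 each. Ovary (370761 peaks) and cerebellum (359065 peaks) also had the longest lists, followed by cerebrum (311374), kidney (307360) and liver (306766), and colon had the shortest (260977). With every list cut to its strongest 260977 peaks, cerebellum had 961 strong regions, ovary 663, liver 179 and colon 172. Per 10000 peaks of the list, cerebellum had 48.1 strong regions, ovary 33.4, liver 6.06, colon 4.52 and cerebrum 0.674.

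The share of a tissue's own 1-tissue regions that were strong ran from 0.550% in cerebrum to 9.39% in colon. In cerebellum it was 4.94% (95% Wilson interval 4.71 to 5.17), in ovary 4.68% (4.44 to 4.95) and in liver 4.13% (3.59 to 4.76). Colon had 118 of 1256, with an interval of 7.90 to 11.1, above the interval of every other tissue. Kidney had 35 of 4079 (0.858%) and cerebrum 21 of 3815, and lung 12 of 1702 (0.705%). These intervals cover counting error only, and neighbouring regions are not independent. Presence and fold chose the regions, so these shares are a description and were not tested.

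**Figure D1:**
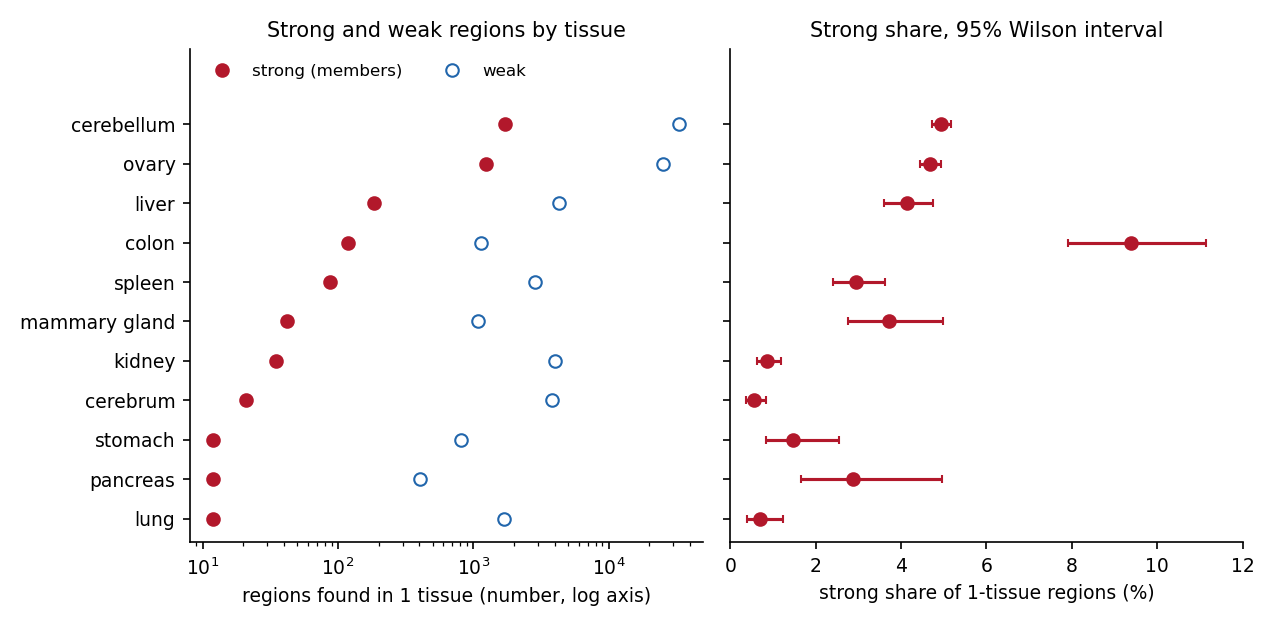
Left, the number of strong (filled) and weak (open) 1-tissue regions of each tissue on a log axis. Right, the strong share of 1-tissue regions in percent with its 95% Wilson interval; colon stands at 9.39%, cerebrum at 0.550%.

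Which tissues were compared had a large effect on these numbers. With the ovary list left out, strong regions of cerebellum rose from 1728 to 3362, and with the cerebellum list left out those of ovary rose from 1237 to 2601. Cerebrum rose from 21 to 103 without cerebellum, and to 60 without ovary. Kidney rose from 35 to 117 without ovary. Mammary gland rose from 42 to 92 without ovary. Colon rose from 118 to 179 without stomach, and stomach from 12 to 25 without colon. Lung rose from 12 to 31 without liver. In each case the regions gained were at or above the median of their own list and had been matched by the list left out. Cerebellum reached 2491 without cerebrum, the other brain tissue of the set.

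The fold of a strong region divided by the median fold of its list had a median of 1.099 and a 90th percentile of 1.34, and 50.8% of the regions were below a ratio of 1.1, from 31.0% in mammary gland to 66.7% in lung. Only 127 of the 3490 (3.64%) reached a ratio of 1.5, and 11 reached 2. Those 11 were 4 in cerebellum, 3 in pancreas, 2 in liver and 2 in mammary gland. A ratio of 1.5 was reached by 25.0% of the pancreas regions (3 of 12) and 21.4% of the mammary gland regions (9 of 42), by 10.2% in colon and in liver, 8.33% in stomach (1 of 12), 3.59% in cerebellum, 3.45% in spleen and 1.46% in ovary. No strong region of lung, cerebrum or kidney reached it.

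The strong region farthest above its list was in mammary gland, at chr23:51484409-51485447 (CanFam3.1), 1039 bases wide, with a fold of 21.0 against a list median of 6.90 and a −log10 p-value of 115. The second was in pancreas, at chr16:20019263-20020690, 1428 bases wide, with a fold of 20.1 against a list median of 7.94. The highest of cerebellum was at chr26:27742560-27743317 with a fold of 15.3, 2.27 times the list median. The highest of liver, at chr1:18558389-18558970, had a fold of 15.1, a ratio of 2.11. In colon the highest was at chr1:99773063-99773612, with a fold of 15.999 and a ratio of 1.96. In ovary it was at chr16:53770827-53771221, with a fold of 13.0 and a ratio of 1.99. Spleen reached a fold of 11.0 at chr14:39303983-39304355, stomach 13.4 at chr31:30057059-30057440, kidney 8.95 at chr28:13524404-13524878, cerebrum 8.82 at chr3:87774949-87775404 and lung 8.09 at chr20:55418207-55418538. Gene annotation of this build was not used here, so none of these positions is given a gene.

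At the threshold itself the regions inside and outside had nearly equal folds. In cerebellum the last region inside had a fold of 6.756 and the first outside 6.752. In ovary these were 6.534 and 6.532, and in liver 7.146 and 7.141. In the smaller sets the step was wider, from 8.05 to 7.69 in pancreas and from 6.19 to 6.07 in lung. Fold values recurred exactly: the 1728 cerebellum regions held 769 distinct folds and the 1237 ovary regions 543, and 48 cerebellum regions shared the single value 6.86.

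**Figure D2:**
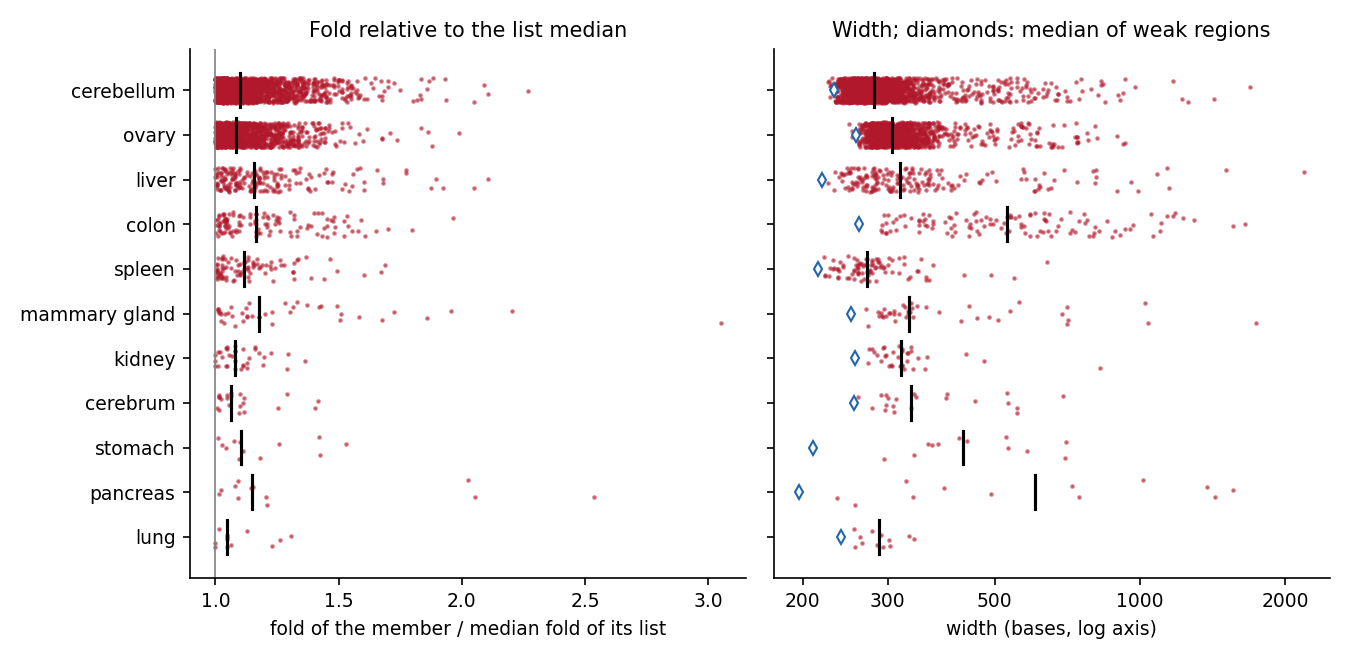
Each point is 1 strong region. Left, its fold divided by the median fold of its list, with the threshold at 1; right, its width in bases on a log axis, with diamonds at the median width of the weak regions. Black bars are medians of the strong regions. The median ratio runs from 1.05 in lung to 1.18 in mammary gland, and the median width from 272 bases in spleen to 607.5 in pancreas.

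The median width of strong regions was 297 bases, with quartiles of 274 and 333 bases and a range of 221 to 2193 bases, and 92.6% were under 500 bases. The median was 243 bases in weak regions. Shared regions had a median of 798 bases, but each of them merges peaks of all 11 lists, so this is not the width of a peak. The median peak of a whole list was 297 bases in pancreas to 360 in kidney. Only 28 reached 1 kb, and all 3490 together covered 1164 kb. Width and fold come from the same peak calls, so these differences describe the selection and carry no test.

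The widest medians were in pancreas, colon and stomach. The 118 strong regions of colon had a median of 530 bases, against 331 for all peaks of the list, and 63 of them (53.4%) were at least 500 bases wide, against 9.58% of the weak regions of colon. The 12 pancreas regions had a median of 607.5 bases (list 297), with 6 of them at least 500 bases wide, and the 12 stomach regions a median of 430 (list 298), with 41.7% that wide. The share was 23.8% in cerebrum and in mammary gland, 15.6% in liver, 4.69% in cerebellum, 4.61% in ovary, 2.86% in kidney, 2.30% in spleen and 0% in lung. In the tissues other than pancreas, colon and stomach the medians lay between 272 bases in spleen and 336 in cerebrum. The lists differ in their shortest peak, which was 210 to 218 bases in ovary, kidney, cerebrum, mammary gland and lung and 175 to 192 in the other 6, and the part of this difference in the widths was not tested. The widest region of all was in liver, at chr11:65069497-65071689, with 2193 bases and a fold of 8.75. The widest of colon was at chr14:40417876-40419528, with 1653 bases. The widest of cerebellum was at chr5:32999936-33001623, with 1688 bases.

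The 12 regions of pancreas can be followed singly. Of the 12, 4 were on chromosome 16, where 2.96% of the weak pancreas regions lay. The 4 had folds of 9.60, 8.66, 16.1 and 20.1 in order along the chromosome, and the last pair, at chr16:17357127-17358141 and chr16:20019263-20020690, were also among the widest. On chromosome 10, 2 neighbouring regions at chr10:7473315-7474037 and chr10:7474388-7475135 had folds of 8.59 and 16.3. On chromosome 32, 2 more regions lay at chr32:8245269-8245760 and chr32:8265547-8267104, with folds of 8.05 and 8.14. In stomach, 2 of the 12 were neighbours, at chr34:14865875-14866457 and chr34:14866566-14867264, with folds of 9.69 and 10.3. The 12 lung regions lay on 11 chromosomes, none was wider than 341 bases, and 2 of them had a fold equal to the list median.

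Strong regions were found on every autosome in cerebellum and in ovary. Over all tissues the density ran from 1.17 per Mb on chromosome 30 to 2.64 per Mb on chromosome 35, with 2.28 on chromosome 26 and 2.11 on chromosome 5. Chromosomes 30 and 35 held 1.35% and 2.01% of the strong regions, against 1.83% and 1.23% of all union regions. Chromosomes 26 and 5 held 2.55% and 5.39%, close to their 2.62% and 5.54% of all union regions. Cerebellum had its highest densities on chromosomes 26 (1.39 per Mb) and 35 (1.36 per Mb). These held 3.125% and 2.08% of its strong regions, against 2.42% and 1.60% of its weak regions. Ovary was highest on chromosome 35 (0.943 per Mb), with 2.02% of its strong and 1.40% of its weak regions. It was lowest on chromosome 20, where it had 11 strong regions (0.189 per Mb, or 0.889% of its strong and 2.27% of its weak regions). Liver had 25 of its 186 strong regions on chromosome 5 (13.4%, against 7.56% of its weak regions). It had 17 on each of chromosomes 9 and 20 (9.14%), against 7.97% and 5.33% of its weak regions, and none on 4 autosomes. Spleen also had its largest number on chromosome 5, with 9 of 87 (10.3%, against 4.83% of its weak regions). Differences between chromosomes were not tested.

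**Figure D3:**
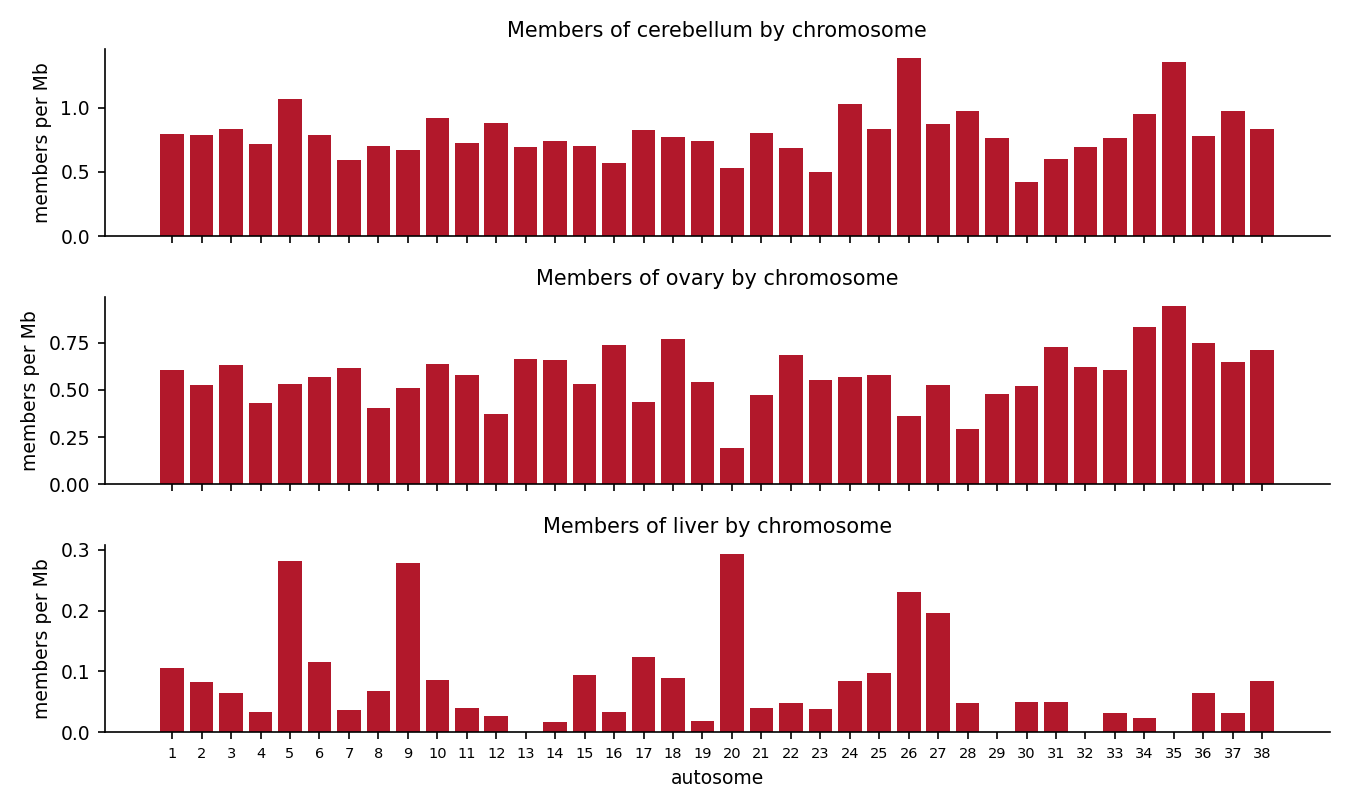
Strong regions per Mb of each autosome in cerebellum, ovary and liver, with autosome length taken as the highest peak end. The ovary bar is lowest on chromosome 20 (0.189 per Mb), where liver has 17 strong regions.

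Runs of strong regions were rare. Of the 3490, 150 (4.30%) had another strong region of the same tissue within 10 kb, in 73 runs, of which 4 held 3 regions and none held more. The same measure in weak regions gave 28.9%, but weak regions were far more numerous, and the measure rises with number. When any other 1-tissue region of the same tissue, strong or weak, was counted as a neighbour, 1302 of the 3490 strong (37.3%) and 23580 of the 78598 weak regions had one within 10 kb. Within cerebellum these shares were 42.9% and 41.4%, and within ovary 35.4% and 30.3%. In liver they were 30.6% (95% Wilson interval 24.5 to 37.6) and 18.5% (17.4 to 19.7), and in colon 27.97% (20.7 to 36.7) and 17.1% (15.1 to 19.4). The direction was the opposite in kidney, with 5.71% (1.58 to 18.6) and 7.89% (7.10 to 8.76), and in lung, with 0 of 12 strong regions and 6.39% of weak regions. This second measure was added after the values were seen and is given without a test.

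The 4 runs of 3 lay in cerebellum, liver and colon. One run of cerebellum was at chr24:39441619-39450646, with folds of 7.60, 9.48 and 8.63. It sat in the fullest 1 Mb window of the set, from 39 to 40 Mb of chromosome 24, which held 9 strong and 55 weak regions of cerebellum. The highest of these 9, at chr24:39641959-39642427, had a fold of 13.1, and all 9 were at most 5.21 kb from a shared region. The other cerebellum run was at chr31:27677149-27688591, with folds of 10.4, 11.2 and 9.45, and its first region was 1170 bases wide. The liver run, at chr5:15123313-15134707, had folds of 12.003, 8.29 and 11.1, and contained 1 shared region. The colon run, at chr9:24970793-24986443, had folds of 9.51, 10.9 and 12.4 and contained none. Another colon region, at chr9:24847221-24848174, lay at lower coordinates with a fold of 13.9, and was 77.7 kb from the nearest shared region. The remaining runs were pairs, and the pair with the shortest span was in cerebellum at chr24:33882663-33883364, with folds of 7.18 and 7.34. A strong region of another tissue lay within 10 kb of 24 of the 1728 cerebellum regions (1.39%) and 26 of the 1237 ovary regions (2.10%). The share was 11.9% in mammary gland (5 of 42), 8.33% in lung (1 of 12), 5.08% in colon, 4.76% in cerebrum, 4.30% in liver, 3.45% in spleen and 2.86% in kidney, and none of the pancreas or stomach regions had one.

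Strong regions lay a median of 7.89 kb from the nearest shared region, and weak regions 7.02 kb. Of the strong regions, 479 (13.7%) were within 1 kb of a shared region, 56.3% within 10 kb, and 75 were over 100 kb away. The farthest, in ovary, was at 327 kb. The tissue medians ran from 3.27 kb in liver and 3.68 kb in cerebrum through 5.71 kb in lung, 6.97 kb in spleen, 7.46 kb in cerebellum and 9.08 kb in ovary to 10.2 kb in colon, 11.0 kb in kidney, 12.4 kb in mammary gland, 16.1 kb in pancreas and 21.6 kb in stomach. Weak regions showed a narrower range, from 3.50 kb in lung to 11.3 kb in stomach. For reference, 1-tissue regions as a whole had a median of 7.06 kb, regions of 5 tissues 5.45 kb and regions of 10 tissues 4.18 kb.

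Position was not used to select the regions, so strong and weak regions of the same tissue could be compared across the 11 tissues. The same dog served every tissue, and membership in 1 list depends on the other lists, so the 11 differences are not independent. The p-values of the position tests here and below do not allow for this. The log10 of the median distance was higher by 0.098 in strong regions (SD 0.16, n = 11 tissues), in 8 of 11 tissues. This did not pass a two-sided exact sign-flip permutation test (p = 0.0762, adjusted p = 0.114 over the 3 position tests, where the smallest p possible was 0.000977). The largest differences came from pancreas (0.39), stomach (0.28), kidney (0.23) and lung (0.21), which had 12 to 35 strong regions each. In the 5 tissues with at least 50 strong regions the mean difference was 0.011 (p = 0.688 by the exact test, which cannot go below 0.0625 with 5 tissues). In cerebellum the medians were 7.46 and 7.23 kb, and in liver the strong regions were the nearer, at 3.27 against 3.65 kb.

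**Figure D4:**
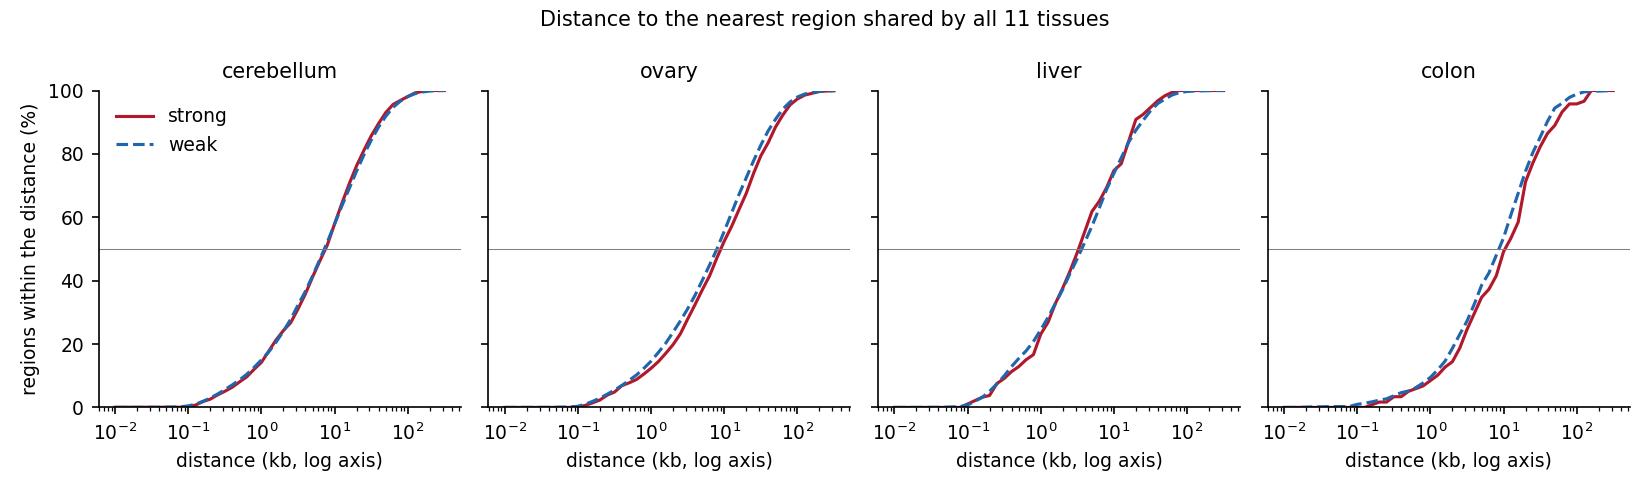
Cumulative share of strong (solid) and weak (dashed) regions within a given distance (kb, log axis) of the nearest region shared by all 11 tissues, in the 4 tissues with the most strong regions. The curves nearly coincide in cerebellum, and in ovary and colon the strong curve runs below the weak one around the median.

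In the last 5 Mb of the autosomes lay 393 strong regions (11.3%) and 10.5% of the weak regions, against 13.0% of all union regions and 17.9% of shared regions. The last 5 Mb make up 8.62% of the autosomal length. Averaged over tissues, the distal share was 8.61% in strong and 10.3% in weak regions, a difference of −1.74 percentage points (SD 4.49, n = 11 tissues) that was positive in 5 tissues and did not pass the exact sign-flip test (p = 0.280, adjusted p = 0.280). The difference was −0.781 points without pancreas and −0.142 with lists cut to equal length, and it turned to 0.961 points in the 5 tissues with at least 50 strong regions. Liver had 22 of 186 (11.8%) against 9.11% of its weak regions. Pancreas and stomach had 0 of 12, where a floor of 3 counts allows a share of up to 25.0%. In the first 5 Mb lay 302 strong regions (8.65%) and 8.88% of the weak regions, against 10.1% of all union regions and 12.1% of shared regions.

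Averaged over tissues, the proximal share was 7.08% in strong and 9.03% in weak regions. The difference of −1.95 percentage points (SD 2.495, n = 11) was negative in 8 of 11 tissues, with p = 0.0166 in the exact sign-flip test. The adjusted p was 0.0498 over the 3 position tests, and 0.0664 when the comparison of folds at shared regions described next, which was added after the values were seen, was counted with them. The difference was −0.739 points in the 5 tissues with at least 50 strong regions (exact p = 0.438), −0.291 points with lists cut to equal length (exact p = 0.764) and −0.847 points over the first 10 Mb (exact p = 0.840). It was −3.02 points when the −log10 p-value replaced the fold in the selection (exact p = 0.0107). With 1 tissue left out the adjusted p over the 3 tests lay between 0.0234 and 0.0996, and it was above 0.05 for 8 of the 11 tissues, all but cerebellum, cerebrum and liver. Stomach contributed the largest difference, −7.96 points, from 0 of 12 regions. Cerebellum had 164 of 1728 (9.49%) against 8.88%, the opposite direction, and ovary 97 of 1237 (7.84%) against 8.93%.

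**Figure D5:**
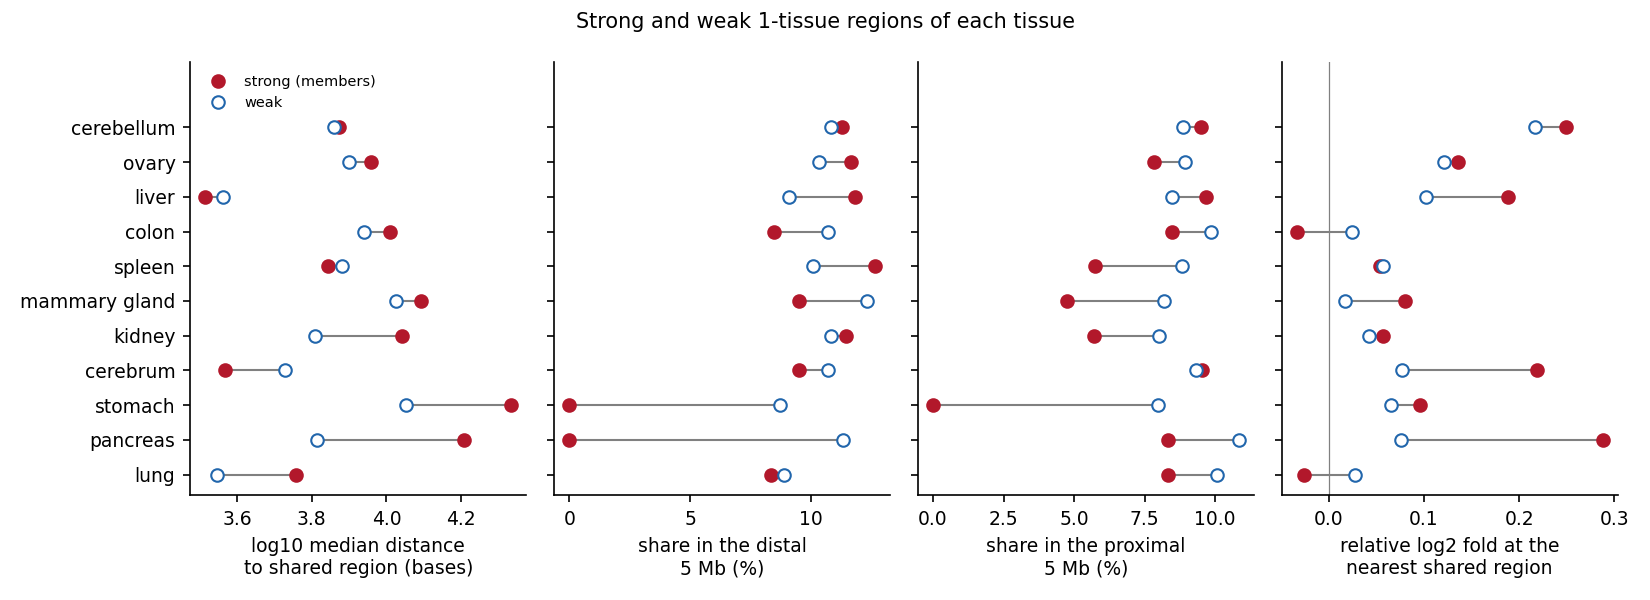
Strong (filled) and weak (open) 1-tissue regions of each tissue, from left to right: log10 of the median distance to the nearest shared region, share in the last 5 Mb, share in the first 5 Mb, and relative log2 fold at the nearest shared region. Pancreas and stomach, with 12 strong regions each, have the widest gaps in distance and distal share, with 0% of their strong regions in the last 5 Mb.

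The shared region next to a strong region was also examined. At each shared region the log2 fold of a list was taken relative to the mean of the 11 lists there, and centred so that each list averaged 0 over all shared regions. The centring sets the levels below and leaves the difference between the averages of strong and weak regions of a tissue unchanged. At the shared region nearest to a strong region of cerebellum, the cerebellum value averaged 0.25 (SD 0.49 over 1728 regions) and was above 0 in 72.7% of cases. Beside weak regions the cerebellum value averaged 0.22 and was above 0 in 70.0%. The share above 0 over all shared regions is not given here, so these percentages have no background to be read against. In liver the 2 averages were 0.19 and 0.10, in ovary 0.14 and 0.12, and in colon −0.03 and 0.02. Over the 11 tissues the difference between strong and weak regions averaged 0.04 (SD 0.08) and was positive in 8 tissues (exact sign-flip p = 0.0986, adjusted p = 0.132 over 4 tests). The fold of the same lists chose the strong regions, so this p is printed for completeness and supports nothing.

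Strong regions were often near union regions with peaks of other tissues, and weak regions slightly more often. A union region with a peak of another list lay within 1 kb of 1401 strong regions (40.1%) and of 43.3% of weak regions. One lay within 200 bases of 280 strong regions (8.02%) and of 9.17% of weak regions. Such a union region can also hold a peak of the tissue's own list, so these are not distances to the other list's peak itself. The share within 1 kb was above that of weak regions in liver (66.1% against 60.7%), pancreas (7 of 12, 58.3% against 57.1%), stomach (7 of 12, 58.3% against 39.7%) and spleen (44.8% against 43.3%). It was below in cerebrum (47.6% against 51.0%), colon (42.4% against 45.2%), lung (5 of 12, 41.7% against 60.7%) and ovary (39.5% against 41.6%). The same held in cerebellum (37.3% against 39.9%), kidney (37.1% against 49.0%) and mammary gland (33.3% against 38.6%). The most isolated strong region, in cerebellum, was 51.7 kb from the nearest union region with a peak of another list. The nearest region with peaks in 2 to 10 lists included the tissue's own list for 83.9% of the cerebellum regions, where 62.6% of all such regions held a cerebellum peak, and for 83.8% of the ovary regions, where 75.5% held an ovary peak. In colon these shares were 56.8% and 38.5%, and in liver 77.4% and 55.0%. For weak regions the shares were 81.7% in cerebellum, 81.4% in ovary, 53.6% in colon and 72.3% in liver. Strong regions had the lower share in mammary gland (47.6% against 54.8%) and lung (6 of 12 against 60.2%), and no test was made of these shares.

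A higher threshold kept few regions. At the 75th percentile of the fold of each list 145 regions remained, 72 in cerebellum, 45 in ovary, 13 in liver, 7 in mammary gland, 3 in colon, 3 in pancreas and 2 in spleen, and none in cerebrum, kidney, lung or stomach. Selecting by the −log10 p-value in place of the fold gave 2769 regions, with 1344 in cerebellum and 1010 in ovary. With every list cut to its strongest 260977 peaks the total was 2306, while mammary gland rose to 83, kidney to 54, and cerebrum and lung to 35 each. Pancreas then had 14 and stomach 13.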

How the data were processed

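The 11 tissue lists hold peaks that the authors called from MBD-seq, with coordinates on CanFam3.1 per the submitters' processing notes. The aligner, the peak caller and how 2 libraries were combined are not given in the sources used here. The fold is a ratio deposited by the authors for each peak, read as such from its place in the narrow-peak format, and the −log10 p-value was also taken as deposited by the authors. Peaks overlapping by at least 1 base or touching were merged on 38 autosomes with Python 3.11.15, numpy 2.4.6 and pandas 2.3.3. Distances run from edge to edge. Named regions are, in each tissue, the highest fold, the widest, and those next to the threshold, with the 5 runs of most members (ties by shortest span); other positions were chosen after their values were seen. Tests were two-sided exact sign-flip permutation tests over tissues with Benjamini-Hochberg adjustment. They treat the tissues as independent, although the same dog served all of them. The fold comparison at shared regions, its version within 10 kb and the neighbour count over all 1-tissue regions were added after values were seen. The regions and lists were chosen with earlier results of these data known. The functions for merging, selection, distance to shared regions, runs and the sign-flip test were checked on simulated lists. Planted folds there lay far from the list median, so the check does not bear on regions near the threshold. The relative fold and the nearness to other lists were not part of it. Sequence content, repeats, genes and exons were not analysed here, as no genome or annotation of this build was used.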

Additional observations from a re-analysis of the deposited data

Results flagged for a closer look

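Chromosome X lay outside the autosomal comparison and also carried strong regions. By the same rule, 113 of its 3718 1-tissue regions (3.04%) were strong, below the 4.25% of the autosomes. Of the 113, 57 were in cerebellum and 47 in ovary, with 3 each in colon and mammary gland. The strong share of cerebellum was 3.15% on chromosome X and 4.94% on the autosomes, and that of ovary 4.17% and 4.68%. No control list was used for this count, and the sex of the dogs differed between tissues in the labels, so its part in the count was not tested.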

How the results depend on the processing

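Changes of a call below use the unadjusted exact p at a threshold of 0.05. The number of strong regions was 145 at the 75th percentile and 2306 with equal list lengths, and 3342 to 4650 with 1 list left out. The median width was 346, 302 and 329 bases at the 75th percentile, with the −log10 p-value and with equal list lengths, and 287 to 311 with 1 list left out. The clustered share was 2.76% at the 75th percentile, 3.38% with equal list lengths, 12.5% at 50 kb, and 4.19% to 6.06% with 1 list left out. The share with a union region of another list nearby was 35.2% with peaks within 200 bases merged, 80.6% within 5 kb, and 36.0% to 40.4% with 1 list left out.

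The log10 distance difference was 0.0432 with equal list lengths, 0.0111 in the 5 tissues with at least 50 regions of each kind, and 0.0687 to 0.124 with 1 tissue left out, with p = 0.0254 by the exact test without cerebrum. The distal difference ranged from −2.19 to −0.781 points with 1 tissue left out and was −0.142 points with equal list lengths, −0.653 with the −log10 p-value and −0.793 with 200-base merging, and reversed to 0.961 points in those 5 tissues. The proximal difference lost p under 0.05 at the 75th percentile (−4.60 points, 7 tissues), with 200-base merging (−2.26), equal list lengths (−0.291), 5 tissues (−0.739) and 10 Mb (−0.847), and ranged from −2.26 to −1.34 points with 1 tissue left out (exact p = 0.00781 to 0.0332, adjusted p = 0.0234 to 0.0996, above 0.05 in 8 of 11 cases). With the −log10 p-value it was −3.02 points (exact p = 0.0107). The relative fold difference, added after seeing the data, reversed to −0.112 at the 75th percentile. It was 0.0146 in the 5 tissues, 0.0286 with 200-base merging, 0.0345 with equal list lengths, 0.0454 with the −log10 p-value, 0.0861 within 10 kb (1 of several versions tried), and 0.0270 to 0.0540 with 1 tissue left out. The fold of the same lists chose the strong regions, so no p-value of this comparison, under any of these settings, is read as a call. The cause of these changes was not tested.

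No paired analysis was possible because each tissue has 1 list for both libraries. Read depth is unknown, which limits what a missing peak shows. Planned comparisons of CpG content, GC content, repeats, genes, exons and transcription starts were not run, since they need a genome or annotation of the build.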
